A study of Mus musculus with 12 samples.

Results

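The nucleolus and ribosomal RNA synthesis genes described here are 10 of the 24020 genes in a count table from mouse hypothalamus. They were chosen by symbol. They are Rn45s, the gene of the long ribosomal RNA precursor, Polr1a and Polr1b, the large catalytic subunits of RNA polymerase I, the polymerase I factors Ubtf and Rrn3, the box C/D small nucleolar ribonucleoprotein proteins Fbl, Nop56 and Nop58, and the abundant nucleolar proteins Ncl (nucleolin) and Npm1 (nucleophosmin). The choice was made with results of these libraries known, and Rn45s and Npm1 were in it because their levels had already been seen to differ between the genotypes. Their values are therefore given as a description with no test, and tests are given for the other 8 members.

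Hypothalamus was taken from wild-type, heterozygous and homozygous mice of the line Wfs1tm1Koks, a targeted mutation of Wfs1, whose product, wolframin, sits in the membrane of the endoplasmic reticulum. There were 12 libraries, 4 per genotype, no treatment, and no age or sex in the labels used here. All 12 libraries carry that same strain label. The homozygous columns of the table are numbered 1, 2, 4 and 5, while the labels number the homozygous samples 1 to 4, so the column numbered 5 is known by its genotype only.

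The nucleolus is the site where RNA polymerase I copies the repeated ribosomal DNA into a long precursor RNA. Ubtf binds along those repeats and keeps them open, and Rrn3 joins the polymerase so that it can start at the promoter. Small nucleolar RNAs then guide chemical marks and cuts on the precursor, and the box C/D class works in a particle with Fbl (fibrillarin, the methyltransferase), Nop56, Nop58 and a small RNA-binding protein. Ncl and Npm1 bind ribosomal RNA and assembling subunits, act as chaperones, and are widely used as nucleolar markers. Neurons carry prominent nucleoli, and their output of ribosomes is coupled to growth and stress signals.

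Total counts ran from 979394 to 2330872 per library, and 10737 genes had enough counts to be tested. Levels below are in CPM, the counts of a gene relative to the library's total, scaled by the trimmed mean of M values (TMM), and a gene is said to have risen or fallen when edgeR's quasi-likelihood test gave a Benjamini-Hochberg adjusted p under 0.05 over those genes. The targeted gene followed the labels: Wfs1 stood at 146 ± 24.6 CPM (SD, n = 4) in wild-type, 89.6 ± 9.28 CPM (SD, n = 4) in heterozygous and 17.1 ± 2.32 CPM (SD, n = 4) in homozygous libraries. All 14 listed hypothalamus markers were in the table, 11 were tested and 3 fell in the homozygotes, and their summed level was 960 to 1358 CPM in wild-type, 1019 to 1551 CPM in heterozygous and 978 to 1341 CPM in homozygous libraries. The 6 pituitary markers summed to 13.2 to 24.9 CPM in wild-type, 8.53 to 19.3 CPM in heterozygous and 2.26 to 16.5 CPM in homozygous libraries. Among them Gh and Prl were at 0 in every library. Pomc, which is also in the hypothalamus list, was the 1 tested, and it fell in the homozygotes. None of 8 markers of dividing cells was abundant enough to test, their summed level was 5.10 to 11.7 CPM in wild-type, 9.19 to 16.1 CPM in heterozygous and 7.90 to 13.5 CPM in homozygous libraries, and Ccnb1, Cdk1 and Aurkb had no count in any library. Oligodendrocyte markers summed to 2941 to 3774 CPM in wild-type and 1734 to 3061 CPM in homozygous libraries, with 1 of 6 fallen, and microglia markers to 136 to 165 CPM and 115 to 151 CPM, with 0 of 4 tested past edgeR's threshold. Other lists moved up: of 6 thalamus markers 3 rose (Ntng1, Slc17a6 and Rora), with sums of 528 to 755 CPM in wild-type and 686 to 1082 CPM in homozygous libraries. Neuron markers summed to 4358 to 5472 CPM and 5245 to 7425 CPM, and astrocyte markers to 4225 to 5404 CPM and 5117 to 6631 CPM, each with 2 of 6 risen and 1 fallen. The part of these levels in the results below was not tested. The slope of expression on transcript GC content also differed between the genotypes: per 10% GC it was 0.0273 to 0.320 log2 units in wild-type, -0.0149 to 0.209 in heterozygous and -0.507 to 0.0187 in homozygous libraries, with homozygous replicates 4 and 5 lowest. Wild-type and homozygous slopes did not overlap, so genotype and this slope cannot be told apart.

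Members of the box C/D particle carry box C/D RNA genes inside their own introns, and nucleolin hosts a further one, so these RNAs link the proteins to the particles they build. Of the small nucleolar RNA genes that the GENCODE M21 annotation of GRCm38 places within members, 5 lie in Nop56, 4 in Nop58 and 3 in Ncl, and none lies in another matched member. One per host is shown, 5′ to 3′, with box C (TGATGA) and box D (CTGA), the motifs the particle's proteins bind around, in capitals. Snord110 lies within Nop56 at chr2:130275506-130275573 on the plus strand, Snord11 within Nop58 at chr1:59704790-59704873 on the plus strand, and Snord82 within Ncl at chr1:86356261-86356330 on the minus strand.
Snord110: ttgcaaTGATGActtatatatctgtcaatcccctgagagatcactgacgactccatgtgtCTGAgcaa
Snord11: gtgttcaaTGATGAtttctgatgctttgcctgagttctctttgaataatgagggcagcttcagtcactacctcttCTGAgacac
Snord82: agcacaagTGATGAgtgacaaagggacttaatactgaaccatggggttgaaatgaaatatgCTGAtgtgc
Of these 12 genes 6 have a line of their own in the count table, 2 per host, and all 6 had 0 counts in the 12 libraries. The sequences show what the box C/D proteins hold, while the levels below are those of the host genes.

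Across the set, Rn45s was lower and Npm1 and Ncl were higher in the mutant libraries, while the polymerase I subunits showed no change past the test. Of the other 8 members, 7 could be tested, and 4 passed between homozygous and wild-type libraries, 2 higher (Ncl and Nop58) and 2 lower (Rrn3 and Nop56). Over all genes tested 25.4% passed, 13.7% higher and 11.6% lower. Upper quartile scaling, which moved the median of all genes from -0.03 to -0.10, left 44% of all calls in the higher direction against 54.2% with TMM, and the same number of members passed in each direction. Between heterozygous and wild-type 1 of 7 passed, Ncl, against 0.596% of all genes (0.512% higher and 0.0838% lower). Between homozygous and heterozygous 0 of 7 passed with edgeR, against 2.2% of all genes (1.74% higher and 0.456% lower), with 2 at an unadjusted p under 0.05 (Rrn3 and Nop58) and 0 by DESeq2 or limma-voom. The comparisons with wild-type share their control libraries.

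Rn45s, the gene of the ribosomal RNA precursor, was the member with the lowest homozygous level relative to wild-type. Its counts do not separate precursor from mature ribosomal RNA. How reads of mature ribosomal RNA were counted is not given in the sources used here, so its level is not a measure of synthesis. In wild-type libraries it stood at 1386, 1983, 1786 and 958 CPM, in heterozygous libraries at 378, 788, 379 and 352 CPM, and in homozygous libraries at 316, 352, 95.6 and 85.8 CPM. All wild-type libraries lay above all others, heterozygous replicate 2 stood apart from its group, and the lowest heterozygous and the highest homozygous library were level. The means were 1528 ± 454 CPM (SD, n = 4), 474 ± 210 CPM (SD, n = 4) and 212 ± 141 CPM (SD, n = 4). The homozygous level differed from wild-type by -2.81 on the log2 scale (SE 0.344), and by -2.18 without homozygous replicates 4 and 5, which held the lowest levels, and the heterozygous difference from wild-type was -1.68 (SE 0.326). The difference between homozygous and heterozygous was -1.13 (SE 0.331) and was -0.51 without those libraries. As a share of all counts, Rn45s made up 0.144%, 0.202%, 0.191% and 0.10% of the wild-type libraries and 0.0302%, 0.0337%, 0.00861% and 0.00776% of the homozygous ones. With the GC slope of each library as a covariate, the homozygous difference from wild-type was -1.64. In a pool of RNA from whole tissue, fewer cells of a type and less RNA per cell cannot be told apart.

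**Figure D1:**
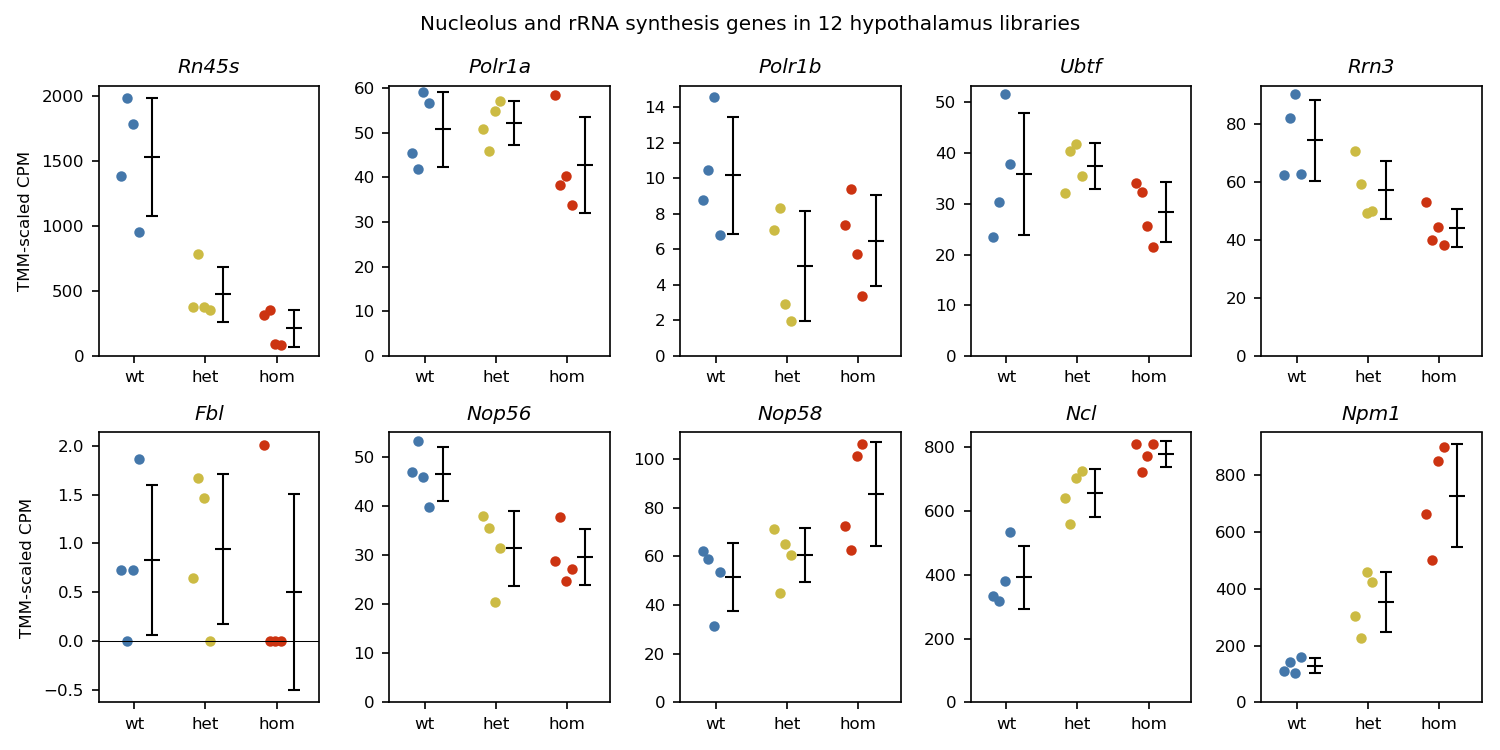
Level of each of the 10 nucleolar genes in TMM-scaled CPM (vertical axis, 1 panel per gene, its own scale) in wild-type (wt), heterozygous (het) and homozygous (hom) libraries; points are libraries and the bars beside them the mean and SD of 4. Rn45s stepped down from wild-type to homozygous and Npm1 stepped up, while the genotypes overlapped for Polr1a, Polr1b and Ubtf; Fbl had 0 to 4 counts per library, and its SD bars reach below 0.

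Neither of the polymerase I subunits among the members passed edgeR's test between homozygous and wild-type libraries. Polr1a, the largest subunit (chromosome 6, 71909053 to 71984935, GRCm38), was measured at 45.5, 41.9, 59.0 and 56.6 CPM in wild-type, 50.8, 45.9, 54.9 and 57.1 CPM in heterozygous and 58.3, 38.2, 40.4 and 33.9 CPM in homozygous libraries. The groups overlapped, and the homozygous difference was -0.25 on the log2 scale (SE 0.185, adjusted p = 0.348, edgeR). Polr1b, which forms the catalytic cleft with Polr1a (chromosome 2, 129100995 to 129126594), was at 8.80, 10.5, 14.6 and 6.84 CPM in wild-type, 7.07, 8.34, 2.93 and 1.97 CPM in heterozygous and 7.38, 9.43, 5.77 and 3.39 CPM in homozygous libraries. Its difference was -0.52 (SE 0.399, adjusted p = 0.356, edgeR), and the low counts give this value a wide error. A p that misses the threshold does not show that either level was the same in the genotypes.

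The factors that load the polymerase differed from each other in their result. Ubtf (chromosome 11, 102304560 to 102319742) stood at 23.5, 30.4, 51.7 and 37.9 CPM in wild-type, 32.1, 40.5, 41.8 and 35.4 CPM in heterozygous and 34.2, 32.3, 25.5 and 21.5 CPM in homozygous libraries, with overlapping ranges. Its homozygous difference was -0.31 (SE 0.223, adjusted p = 0.323, edgeR). Rrn3, which carries the signal to start and is itself regulated by growth and stress kinases (chromosome 16, 13780708 to 13814839), fell. It was measured at 62.3, 81.8, 90.4 and 62.8 CPM in wild-type, 70.7, 59.2, 49.1 and 49.9 CPM in heterozygous and 53, 40.0, 44.5 and 38.4 CPM in homozygous libraries. Every homozygous library lay below every wild-type one, and the heterozygous libraries spanned the gap. The fall was 1.68-fold, or -0.75 on the log2 scale (SE 0.178, adjusted p = 0.00389, edgeR), and it passed the threshold without any single library (adjusted p 0.00230 to 0.0262) and without homozygous replicates 4 and 5 (-0.68, adjusted p = 0.0218). With the GC slope as a covariate it was -0.56 and no longer passed (adjusted p = 0.177). Whether the change of Rrn3 differed from that of Ubtf was not tested.

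In the wider list of polymerase I subunits, 9 of 13 were tested, 0 rose and 1 fell. That was 11.1%, against 25.4% of all genes tested, and the median log2 difference was -0.26 against -0.03. The one that fell, Polr2e, encodes a subunit shared with polymerases II and III (20.2 ± 4.95 CPM in wild-type and 11.3 ± 3.80 CPM in homozygous libraries, SD, n = 4; -0.85, SE 0.311, adjusted p = 0.0476, edgeR). Its call was lost in 7 of the 12 analyses without 1 library (heterozygous replicates 1 and 2, homozygous 2 and 4, wild-type 1, 2 and 3; adjusted p up to 0.164), without homozygous replicates 4 and 5 (adjusted p = 0.135), with the GC covariate (adjusted p = 0.401), and with DESeq2 and limma-voom. The initiation and termination factors, which hold Ubtf and Rrn3, had a median of 0.06. Of them 11 of 14 were tested, 2 rose and 2 fell, or 36.4%, with Rrn3 counted again among those that fell. Top1, the topoisomerase that relieves the twist ahead of the polymerase, rose from 96.5 ± 7.96 to 167 ± 46.6 CPM (SD, n = 4; 0.77, adjusted p = 0.00197, edgeR), and Taf1d, a subunit of the promoter selectivity factor, rose by 0.76 (adjusted p = 0.0232, edgeR). Neither passed without homozygous replicates 4 and 5 (adjusted p = 0.0726 and 0.0818, edgeR) or with the GC covariate (adjusted p = 0.486 and 0.446, edgeR). Ptrf, a release factor that is better known as the caveolar coat protein cavin, fell by 0.88 on the log2 scale (adjusted p = 0.0360, edgeR), and it is also a gene of vessel cells, whose marker list had 2 of 5 tested genes fallen and summed to 152 to 176 CPM in wild-type and 113 to 139 CPM in homozygous libraries. The part of vessel cells in its fall was not tested. Among 11 tested genes of ribosomal DNA silencing, 0 rose and 2 fell, or 18.2%. Suv39h1, a histone methyltransferase, fell by 0.78 and Baz2a, the core of the silencing complex, by 0.50 (adjusted p = 0.0219 and 0.0259, edgeR). Of polymerase II subunits 0 of 5 tested passed with edgeR, with 1 at an unadjusted p under 0.05 and 0 by DESeq2 or limma-voom. Of polymerase III subunits 2 of 11 fell, or 18.2%, Crcp by 0.71 and Polr3a by 0.79. Other calls in this paragraph were also lost without 1 library: Taf1d without homozygous replicate 1 or 5 or wild-type replicate 3 (down to 0.62), Ptrf in 6 of 12 omissions (homozygous 1, 2 and 5, wild-type 2, 3 and 5; adjusted p up to 0.140), Suv39h1 without homozygous 4 or wild-type 2 or 3 (up to 0.0840), Baz2a without homozygous 4 or 5 or wild-type 2, 3 or 5 (up to 0.0866), Crcp without homozygous 4 or 5 or wild-type 2 (up to 0.0756), and Polr3a without homozygous 1, 2 or 4 or wild-type 1 or 3 (up to 0.130). With the GC covariate Ptrf, Suv39h1, Baz2a, Crcp and Polr3a all lost their calls (adjusted p = 0.341, 0.638, 0.85, 0.443 and 0.173, edgeR). Without homozygous replicates 4 and 5 Ptrf, Suv39h1, Baz2a and Crcp lost theirs (adjusted p = 0.0828, 0.14, 0.282 and 0.171, edgeR). Polr3a kept its call there (adjusted p = 0.00879, edgeR).

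Of the box C/D particle proteins Nop56 fell and Nop58 rose, though both calls depended on the libraries and the fit. Nop56 (chromosome 2, 130274430 to 130279313) fell from 46.9, 53.3, 45.9 and 39.8 CPM in wild-type to 37.9, 35.5, 20.5 and 31.5 CPM in heterozygous and 28.8, 37.7, 24.7 and 27.1 CPM in homozygous libraries. All wild-type libraries lay above all others. The homozygous difference was -0.61 (SE 0.202, adjusted p = 0.0290, edgeR), and the heterozygous one, -0.54 (SE 0.196), did not pass (adjusted p = 0.203, edgeR). The call was lost in 6 of the 12 analyses without 1 library (homozygous replicates 1, 4 and 5 and wild-type replicates 1, 2 and 3, adjusted p up to 0.0887), with limma-voom (-0.57, adjusted p = 0.0662), without homozygous replicates 4 and 5 together (-0.45, adjusted p = 0.193), and with the GC covariate (-0.34, adjusted p = 0.518). The annotation places Idh3b on the opposite strand across Nop56, the strand of the counts is not given in the sources used here, and reads from the shared stretch cannot then be told apart. Idh3b, a subunit of a mitochondrial dehydrogenase, had 199 ± 20.1 CPM in wild-type and 197 ± 28.7 CPM in homozygous libraries (SD, n = 4; -0.01, SE 0.128, adjusted p = 0.957, edgeR).

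Nop58 (chromosome 1, 59684971 to 59719044) rose in the homozygotes. Its levels were 62.3, 59.0, 31.3 and 53.5 CPM in wild-type, 71.3, 45.0, 65.2 and 60.4 CPM in heterozygous and 72.4, 62.4, 101 and 106 CPM in homozygous libraries. The highest wild-type and the lowest homozygous library were level, and homozygous replicates 4 and 5 were the highest of all. The difference was 0.71 (SE 0.210, adjusted p = 0.0163, edgeR), or 1.63-fold. It was 0.39 without those 2 libraries (adjusted p = 0.234), it did not pass without homozygous replicate 4 (adjusted p = 0.0567), homozygous replicate 5 (adjusted p = 0.0506) or wild-type replicate 3 (adjusted p = 0.0753), and it was 0.01 with the GC covariate (adjusted p = 0.990). A fit with the replicate number as a block also ended the call (0.47, adjusted p = 0.208). The 2 paralogues take matched places in the particle, so their ratio was also computed, which no scaling of a library can change. The GC slope of a library can change it where the counted transcripts differ in GC content. The longest annotated transcripts have 41.0% GC (Nop58, 9507 bases) and 50.1% GC (Nop56, 3627 bases). Which isoforms were counted was not tested. There were 1.33, 1.11, 0.683 and 1.34 Nop58 counts per Nop56 count in wild-type, 1.88, 1.27, 3.18 and 1.92 in heterozygous and 2.51, 1.65, 4.10 and 3.92 in homozygous libraries. Every homozygous ratio lay above every wild-type one. Homozygous replicates 4 and 5, which had the lowest GC slopes, had the highest ratios, and the part of the slope in the ratio was not tested. The means were 1.12 ± 0.308, 2.06 ± 0.801 and 3.05 ± 1.17 (SD, n = 4 each). The pair was picked after its values were seen, and no test is given. The third member of the particle, Fbl (chromosome 7, 28169710 to 28179269), had 0 to 4 counts per library and 15 in all and did not pass the filter, so its level can be given only as a limit: 3 counts correspond to 1.35 to 3.39 CPM in the 5 libraries where it had none.

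In the list of box C/D and H/ACA particle proteins, which includes these members, 13 of 19 were tested, 3 rose and 2 fell between homozygous and wild-type. That was 38.5%, against 25.4% of all genes tested. The calls of Nop56 and Nop58 given above are counted again in this share. Dkc1, the pseudouridine synthase dyskerin of the H/ACA particle, rose from 36.8 ± 4.37 to 81.8 ± 24.7 CPM (SD, n = 4; 1.12, SE 0.206, adjusted p = 0.000470, edgeR), with 42.5 ± 8.05 CPM in heterozygotes. Without homozygous replicates 4 and 5 the rise was 0.72 (adjusted p = 0.0134), and with the GC covariate 0.44 (adjusted p = 0.257). The particle assembly factors Znhit6 and Znhit3 went opposite ways, Znhit6 up by 0.63 (adjusted p = 0.0340, edgeR) and Znhit3 down, with a difference of -0.78 (adjusted p = 0.0344, edgeR). Znhit6 lost its call without homozygous replicate 1 or 2 or wild-type replicate 1 or 3 (adjusted p up to 0.117), and Znhit3 without homozygous replicate 2, 4 or 5 or wild-type replicate 1 or 2 (up to 0.145). With the GC covariate Znhit6 passed (adjusted p = 0.0398, edgeR) and Znhit3 did not (adjusted p = 0.19, edgeR). Znhit3 also lost its call without homozygous replicates 4 and 5 together (adjusted p = 0.15, edgeR).

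**Figure D2:**
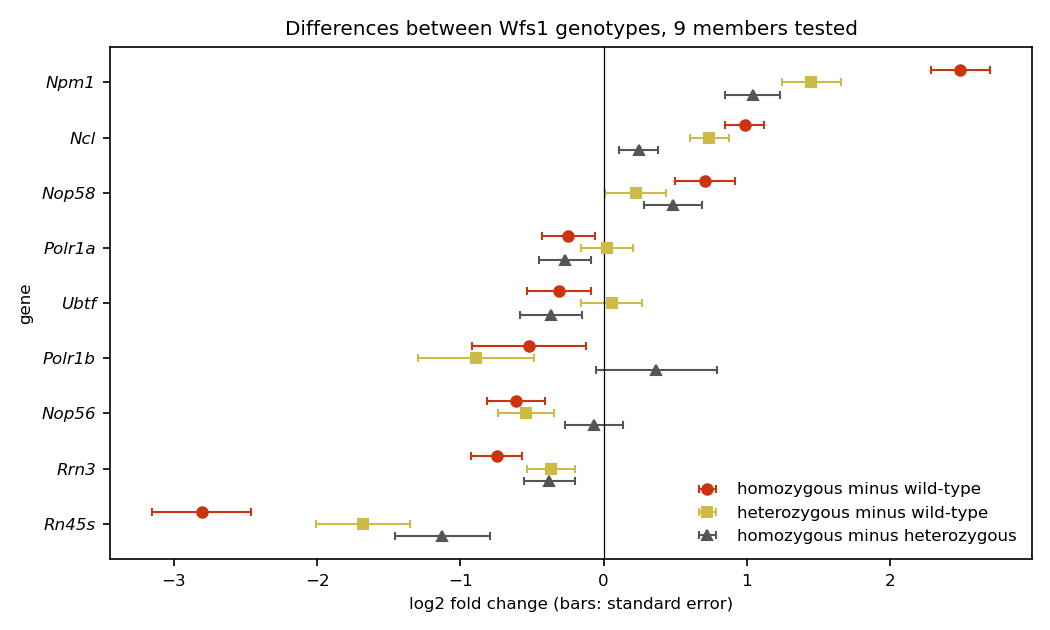
Log2 difference between genotypes (horizontal axis) for each of the 9 nucleolar genes in the fit (vertical axis), with its standard error as a bar, from edgeR over 12 libraries; circles are homozygous minus wild-type, squares heterozygous minus wild-type and triangles homozygous minus heterozygous. Rn45s lies at -2.81 and Npm1 at 2.49 between homozygous and wild-type, and the other tested members lie between -0.75 (Rrn3) and 0.98 (Ncl).

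Nucleolin rose in both mutant genotypes. Ncl (chromosome 1, 86344719 to 86359400) stood at 334, 319, 381 and 534 CPM in wild-type, 640, 558, 702 and 726 CPM in heterozygous and 810, 723, 771 and 808 CPM in homozygous libraries. Every wild-type library lay below every mutant one, and the mutant genotypes overlapped. The homozygous rise was 1.98-fold, or 0.98 (SE 0.138, adjusted p = 2.94e-05, edgeR), and it passed under each alternative run, including the GC covariate (0.95, adjusted p = 0.000586). The heterozygous rise was 0.74 (SE 0.137, adjusted p = 0.0126, edgeR). That call was lost without heterozygous replicate 3 or 4 or wild-type replicate 1, 2 or 3, where the rise was 0.66 to 0.73 (adjusted p 0.0784 to 0.0966). Between homozygous and heterozygous libraries the difference was 0.25 (SE 0.135, adjusted p = 0.311, edgeR).

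Nucleophosmin, the chaperone of the granular nucleolus, had the largest upward difference of the 10 members. Npm1 (chromosome 11, 33152287 to 33163206) was measured at 111, 144, 102 and 159 CPM in wild-type, 304, 228, 458 and 425 CPM in heterozygous and 665, 500, 849 and 899 CPM in homozygous libraries. No genotype overlapped another. Npm1 averaged 129 ± 27.0 CPM in wild-type, 354 ± 107 CPM in heterozygous and 728 ± 182 CPM in homozygous libraries (SD, n = 4 per genotype). The homozygous level was 5.62-fold that of wild-type, 2.49 on the log2 scale (SE 0.207), the heterozygous difference was 1.45 (SE 0.205), and homozygous exceeded heterozygous by 1.04 (SE 0.193). It was 2.18 for homozygous against wild-type without homozygous replicates 4 and 5 and 1.87 with the GC covariate. Npm1 has many processed pseudogene copies in the genome, and how the counting split reads between them is not given in the sources used here, so its level is uncertain. Homozygous replicates 4 and 5 were both the lowest in Rn45s and the highest in Npm1 and Nop58.

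The heterozygous level was also set against the midpoint of the wild-type and homozygous log2 levels, which asks whether 1 mutant copy gave the average of none and both. For the other members 0 of 7 departed from it with edgeR, with 1 at an unadjusted p under 0.05 and 0 by DESeq2 or limma-voom. Over all genes 0.00931% did, which was 1 gene, Wfs1 itself, at 0.83 above the midpoint (adjusted p = 0.0317, edgeR), a call lost in 9 of the 12 analyses without 1 library. Described without a test, Rn45s lay at -0.28 (SE 0.282) and Npm1 at 0.20 (SE 0.168) from it. Ncl lay 0.25 above it (SE 0.116, adjusted p = 0.982, edgeR).

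Levels of different genes can be compared only per length, and the union of annotated exons served as length. That union takes in every annotated isoform. It was 10188 bases for Ncl and 10758 for Nop58, against 2665 for Npm1 and 4099 for Nop56. Which isoforms were expressed was not tested, so the order below depends on these lengths. In wild-type libraries the order was Npm1 at 48.4 CPM per kilobase (range 38.3 to 59.7), Ncl at 38.5 (31.3 to 52.4), Rrn3 at 17.2 (14.4 to 20.9), Nop56 at 11.3 (9.71 to 13.0), Ubtf at 5.48 (3.58 to 7.90), Nop58 at 4.79 (2.91 to 5.79), Polr1a at 4.27 (3.53 to 4.97), Polr1b at 1.75 (1.18 to 2.51) and Fbl at 0.198. Npm1 and Ncl overlapped, as did Ubtf, Nop58 and Polr1a. In homozygous libraries Npm1 stood at 273 (188 to 337) and Ncl at 76.4, and Nop58, at 7.95, was listed ahead of Nop56, at 7.22. Rn45s has no length in the annotation and is not placed.

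The genes whose 12 values ran most like those of Rn45s were Gnb2, a G protein subunit, at a distance of 2.54 log2 units over the 12 libraries, Entpd2, an ectonucleotidase, at 2.76, and Wfs1 at 3.03. The genes nearest to Npm1 were Hmgn5, a nucleosome-binding protein, at 0.895, Ppig, a nuclear cyclophilin, at 0.944, and Cdr1 at 1.06. The distance is Euclidean, with each gene centred on its wild-type mean, and it describes these 12 libraries only. Gnb2 had 2 to 26 and Entpd2 0 to 13 counts per homozygous library, so their values there are uncertain. Wfs1 was nearest by this rank only: its heterozygous difference from wild-type was -0.71, against -1.68 for Rn45s. Its homozygous libraries ran from 14.8 to 20.1 CPM, against 85.8 to 352 CPM for Rn45s.

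Later steps of ribosome assembly were described from lists of 206 further genes in the table, the members left out. Between homozygous and wild-type libraries 38 of 168 tested genes passed, or 22.6%, against 25.4% of all genes tested, with 26 higher and 12 lower, and the median log2 difference was 0.08 against -0.03 over all genes tested. Between heterozygous and wild-type 0 of the 168 passed with edgeR, against 0.596% of all genes, with 23 at an unadjusted p under 0.05, 5 by DESeq2 and 6 by limma-voom. Over all 10737 genes 222 passed by DESeq2 and 394, or 3.67%, by limma-voom. Between homozygous and heterozygous 1 passed, against 2.2% of all genes: Dkc1 (0.92, SE 0.198, adjusted p = 0.0228, edgeR), and that call was lost without homozygous replicate 4 or 5 or heterozygous replicate 2 or 4.

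Among multifunctional nucleolar proteins, a list that holds Ncl, 16 were tested beside Npm1, 3 rose and 2 fell. That was 31.2%, against 25.4% of all genes tested, and the call of Ncl is counted again in it. Dhx9, an RNA helicase, rose from 176 ± 20.9 to 289 ± 55.1 CPM (SD, n = 4; 0.70, adjusted p = 0.00104, edgeR), and Rbm28, a factor of large subunit assembly, fell by 0.71 (adjusted p = 0.0162, edgeR). The calls of Nol8, at 0.44, and Urb1, at -0.80, were each lost in 10 of the 12 analyses without 1 library (adjusted p up to 0.151 and 0.0954), all but those without heterozygous replicates 2 and 3 for Urb1 and homozygous replicate 2 and wild-type replicate 2 for Nol8. Both were lost without homozygous replicates 4 and 5 and with the GC covariate too. Rbm28 lost its call when homozygous 4, wild-type 2 or wild-type 5 was left out (adjusted p up to 0.0646). Its call was also lost without homozygous replicates 4 and 5 together, with the GC covariate and with the replicate block (adjusted p = 0.111, 0.26 and 0.149, edgeR). The GC covariate ended the call of Dhx9 too (adjusted p = 0.235, edgeR).

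In the small subunit processome, the complex that folds and cuts the leader of the precursor, 46 were tested, 6 rose and 1 fell, or 15.2%, against 25.4% of all genes tested. Ddx10, a helicase of that complex, rose from 41.7 ± 6.98 to 82.5 ± 12.6 CPM (SD, n = 4; 0.97, SE 0.181, adjusted p = 0.000528, edgeR). Mphosph10 rose by 0.80 and Nop14 by 0.61, both structural proteins of the complex, while Nol6 fell by 0.63 (adjusted p = 0.00761, 0.0122 and 0.0155, edgeR). Nop14 lost its call without wild-type replicate 3 (adjusted p = 0.0589), and Nol6 without that library or homozygous replicate 4 (up to 0.0626). Nol6 was also lost without homozygous replicates 4 and 5 together (adjusted p = 0.165, edgeR). With the GC covariate Ddx10, Mphosph10, Nop14 and Nol6 all lost their calls (adjusted p = 0.122, 0.319, 0.384 and 0.883, edgeR). The replicate block ended those of Nop14 and Nol6 (adjusted p = 0.0772 and 0.0875, edgeR).

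For large subunit assembly, 39 were tested, 7 rose and 3 fell, or 25.6%. Rsl1d1, a nucleolar protein with a ribosomal protein domain, rose from 79.5 ± 10.5 to 129 ± 6.43 CPM (SD, n = 4; 0.70, SE 0.133, adjusted p = 0.000608, edgeR), and Sbds, which helps to release an assembly factor from the finished subunit, rose by 0.77 (adjusted p = 0.00290, edgeR). Nop2, an RNA methyltransferase, fell from 14.5 ± 2.17 to 5.60 ± 0.663 CPM (SD, n = 4; -1.36, SE 0.328, adjusted p = 0.00428, edgeR), and the helicase Ddx24 fell by 0.55 (adjusted p = 0.00443, edgeR). Ddx24 lost its call without homozygous replicates 4 and 5 (adjusted p = 0.0828, edgeR) and with the replicate block (adjusted p = 0.0950, edgeR). With the GC covariate neither Ddx24 nor Nop2 passed (adjusted p = 0.427 and 0.248, edgeR).

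In the trimming of ribosomal RNA, 22 were tested, 4 rose and 1 fell, or 22.7%. Rpp25, a subunit of RNase P and RNase MRP, rose from 14.5 ± 2.96 to 35.2 ± 7.91 CPM (SD, n = 4; 1.31, SE 0.247, adjusted p = 0.000587, edgeR), and the rise was 1.70 with the GC covariate and 1.5 without homozygous replicates 4 and 5. Skiv2l2, the helicase that feeds RNA to the nuclear exosome, rose by 0.94, Exosc6, an exosome subunit, by 1.56, and Xrn2, the nuclear exonuclease that trims leading ends, by 0.67 (adjusted p = 0.000348, 0.0120 and 0.0175, edgeR). Exosc6 had 2 to 7 counts per wild-type library and 8 to 19 per homozygous one. Its call was lost with the GC covariate (adjusted p = 0.0531, edgeR) and the replicate block (adjusted p = 0.0924, edgeR). Xrn2 lost its call when homozygous replicate 4 or wild-type 3 was left out (adjusted p up to 0.0726). It was also lost without homozygous replicates 4 and 5 (adjusted p = 0.185, edgeR). The GC covariate ended the calls of Xrn2 and Skiv2l2 too (adjusted p = 0.783 and 0.107, edgeR). C1d, an exosome cofactor, fell by 0.58 (adjusted p = 0.0396, edgeR).

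Among noncoding RNAs and small nucleolar RNA host genes 17 of 31 were in the table. Of the 8 tested beside Rn45s 3 rose (Gas5, Snhg4 and Snhg1) and 0 fell. That was 37.5%, against 25.4% of all genes tested. Gas5, whose introns carry many box C/D RNAs, rose from 37.0 ± 4.94 to 85.3 ± 30.4 CPM (SD, n = 4; 1.15, SE 0.220, adjusted p = 0.000647, edgeR), and by 0.77 without homozygous replicates 4 and 5. Snhg4 rose by 1.11 and Snhg1 by 0.96 (adjusted p = 0.00579 and 0.0108, edgeR). Snhg1 lost its call without homozygous replicates 4 and 5 (adjusted p = 0.145, edgeR). With the GC covariate Gas5, Snhg4 and Snhg1 all lost their calls (adjusted p = 0.197, 0.189 and 0.555, edgeR).

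Genes that link the nucleolus to p53 were the last list. Free ribosomal protein particles that hold Rpl5 can bind Mdm2 and so keep p53 from being degraded. Of 10 tested genes 3 rose and 1 fell. That was 40%, against 25.4% of all genes tested (13.7% higher and 11.6% lower). Rpl5 rose from 24.4 ± 10.9 to 56.3 ± 15.2 CPM (SD, n = 4; 1.21, SE 0.266, adjusted p = 0.00212, edgeR). Ccng1, a p53 target, rose by 0.85 and Mdm4, a p53 inhibitor, by 0.72, and Sesn2, another target, fell by 0.92 on the log2 scale (adjusted p = 0.000680, 0.00326 and 0.0354, edgeR). Sesn2 lost its call without homozygous replicate 4 or 5 or wild-type replicate 1, 3 or 5 (adjusted p up to 0.142). It was also lost without homozygous replicates 4 and 5 together (adjusted p = 0.233, edgeR). With the GC covariate Rpl5, Ccng1, Mdm4 and Sesn2 all lost their calls (adjusted p = 0.27, 0.258, 0.364 and 0.642, edgeR). The replicate block ended those of Rpl5, Ccng1 and Sesn2 (adjusted p = 0.0637, 0.0509 and 0.372, edgeR). Rpl5 has processed pseudogene copies, as has Npm1, and its reads are uncertain in the same way.

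**Figure D3:**
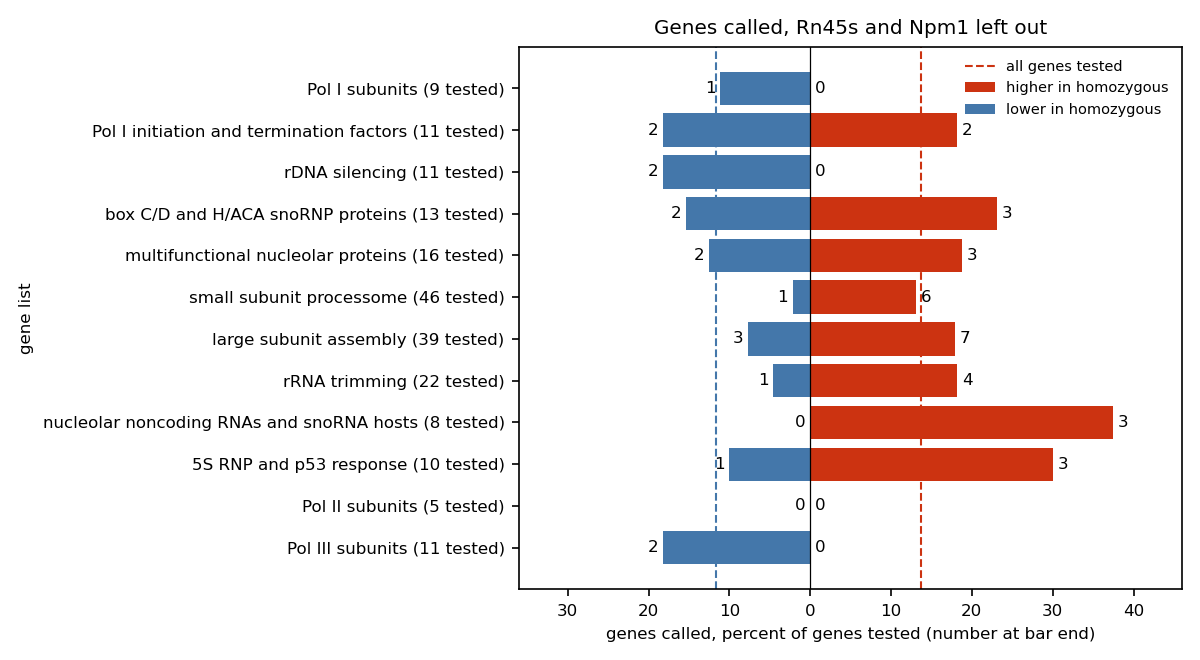
Percent of the tested genes of each list that were higher (to the right) or lower (to the left) in homozygous than in wild-type libraries, with Rn45s and Npm1 left out, with the number of genes at the end of each bar and the number tested beside the list's name; dashed lines mark the share over all genes tested, 13.7% higher and 11.6% lower. The processome list had 6 higher and 1 lower of 46, and the polymerase I, II and III subunit lists had none higher.

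The genes that rose had a lower median GC content than those that fell. Over the ribosome assembly genes, the median GC content of the longest transcript was 43.7% for the 25 that rose and have a sequence, 48.1% for the 130 not called and 51.2% for the 12 that fell. Over all genes tested the same medians were 44.4%, 49.1% and 54.5%. Of the members, the higher ones stood at 42.4% (Npm1), 42.8% (Ncl) and 41.0% (Nop58), and the lower ones at 46.4% (Rrn3) and 50.1% (Nop56). Polr1a, Polr1b and Ubtf, which did not pass, had 51.1%, 51.2% and 54.1%. The longest annotated transcript has 9507 bases for Nop58 and 8202 for Ncl, against 1633 for Npm1. Which isoforms were counted was not tested, so the GC content of the counted RNA may differ from these values. With the GC covariate 9 of the 44 genes that the naming rule took and that were called between homozygous and wild-type, Rn45s and Npm1 left out, still passed, the members among them being Ncl, and without homozygous replicates 4 and 5 there were 26. Over all genes tested 25.4% passed in the analysis reported, 4.28% with the GC covariate and 11.9% without those 2 libraries.

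**Figure D4:**
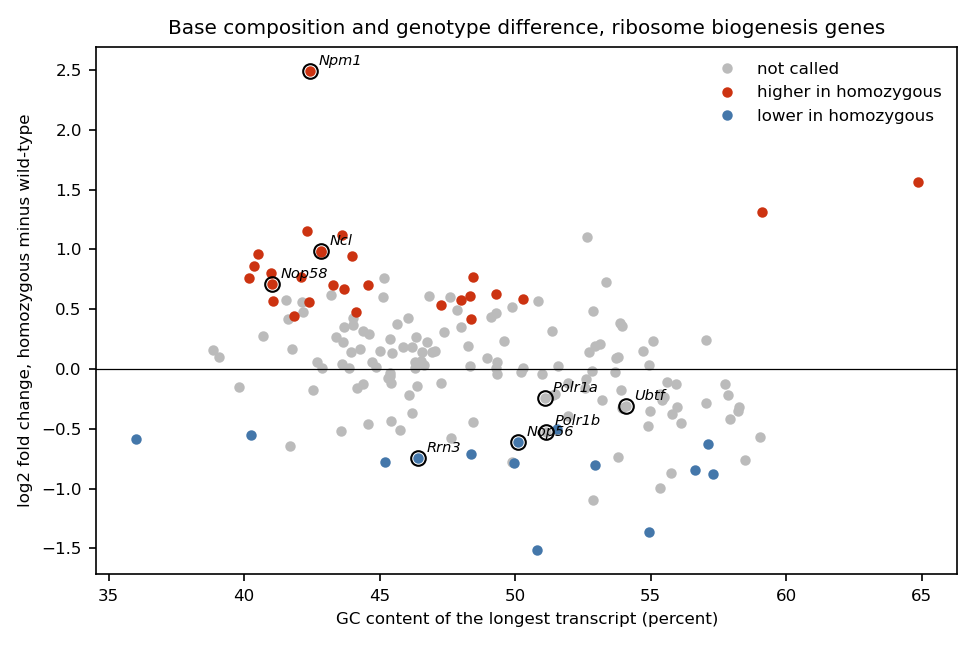
Log2 difference between homozygous and wild-type libraries (vertical axis) against the GC content of the longest annotated transcript in percent (horizontal axis) for nucleolar members and ribosome assembly genes. Genes that rose had a median GC of 43.7% and genes that fell 51.2%, and Ncl and Npm1 lie in the low GC range at 42.8% and 42.4%.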

How the data were processed

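Total RNA (50 ng) from snap-frozen hypothalamus was made into libraries with the Ovation RNA-Seq System V2 and sequenced on a SOLiD 5500xl in read pairs of 75 and 35 bases, per the labels' protocols. The authors deposited raw counts per gene and library; the submitters' processing notes name mm10, and the aligner, counter, annotation and strand are not stated in them. The row numbers skip 58 lines. The protocol speaks of more animals per genotype than the 4 libraries used. The members and lists were chosen with earlier results of these data known, with homozygous replicates 4 and 5 singled out for the same reason.

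Counts were filtered with filterByExpr, scaled by TMM (factors 0.908 to 1.08) and fitted over all 12 libraries and 10737 genes with edgeR 4.0.16 in R 4.3.3 (quasi-likelihood test, Benjamini-Hochberg adjustment, common biological coefficient of variation 0.148). Each p-value sets a difference between genotypes against the spread between libraries. Alternatives were DESeq2 1.42.0, limma-voom (limma 3.58.1) with quality weights, other scalings and filters, a GC covariate, a replicate block and libraries left out. In simulated counts with 200 changed genes, the edgeR step found 86% of those built with a log2 difference of 1 and 99% of those with 2 between homozygous and wild-type, over 10644 genes. The simulation gave every gene the same spread, had no GC slope between genotypes, and changed only genes above a count floor. Its shares may therefore not hold for these libraries or for low-count genes such as Polr1b. Symbols were matched to GENCODE M21 (20717 directly, 1894 by an older symbol, 1409 not). Sequences are from its GRCm38 transcripts. GC slopes and distances used log2 CPM with a prior of 2. Named were the members, Wfs1, up to 4 called genes per list by smallest p, and the 3 genes nearest to Rn45s and to Npm1; genes inside counts of 5 or fewer could also be named. Numbers of counts at 0 and their limits cover counting error only.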

Additional observations from a re-analysis of the deposited data

Results flagged for a closer look

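Each member's 4 values per genotype were checked for a sample far from the others, 30 groups in all, with Dixon's ratio of gap to range at its 95% critical value, which chance passes in about 1 of 20 groups. In 2 groups a library stood apart. Rn45s in heterozygous replicate 2 was 788 CPM, while the other 3 heterozygous libraries lay between 352 and 379 CPM (ratio 0.940). Fbl in homozygous replicate 1 was 2.01 CPM, while the other 3 homozygous libraries were at 0, and this value rests on 3 counts.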

How the results depend on the processing

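No value that passed the threshold in either analysis changed sign, and neither did Rn45s or Npm1; 165 values of 39 results that did not pass changed sign, among them Polr1b (0.27) and Ubtf (0.23) between homozygous and wild-type with the GC covariate and Ubtf (0.06) with the replicate block. Of the values for single genes 4120 kept their side of the threshold, 250 fell below it and 50 rose above it, and the 2 described without a test moved with the GC covariate, Rn45s to -1.64 and Npm1 to 1.87. Of the counts 143 stayed within 1.5 times and 39 did not; the cause was not tested.

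For the other members between homozygous and wild-type, 4 passed in the analysis reported, 1 with the GC covariate, 2 without homozygous replicates 4 and 5, and 2 to 4 without 1 library (2 without homozygous replicate 4, homozygous replicate 5 or wild-type replicate 3). Over all genes tested 25.4% passed in the analysis reported, 4.28% with the GC covariate and 11.9% without homozygous replicates 4 and 5. Between heterozygous and wild-type the count was 0 to 1 without 1 library, and between homozygous and heterozygous 0.

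Of ribosome assembly genes 38 passed between homozygous and wild-type: 4 with the GC covariate, 19 with the replicate block (17 of the 38), 18 without homozygous replicates 4 and 5 (17 of the 38), and 20 to 37 without 1 library (25 without wild-type replicate 2, 20 without wild-type replicate 3). Over all genes tested the share that passed moved as well. It was 25.4% in the analysis reported, 4.28% with the GC covariate and 12.2% with the replicate block. Without homozygous replicates 4 and 5 it was 11.9%, without wild-type replicate 2 19.8% and without wild-type replicate 3 16.9%. Between heterozygous and wild-type 0 passed: 5 with DESeq2 or the GC covariate, 6 with limma-voom, no filter, only the genotypes compared, or without homozygous replicates 4 and 5, 1 with the replicate block, and 0 to 2 without 1 library. Over all genes tested 0.596% passed there, 2.42% with the GC covariate, 3.67% with limma-voom and 1.57% with no filter. The share was 3.64% with only the genotypes compared, 3.79% without homozygous replicates 4 and 5 and 1.52% with the replicate block. By DESeq2 222 of 10737 genes passed. Between homozygous and heterozygous 1 passed: 3 with DESeq2, 5 with no filter, 2 with upper quartile scaling, 0 with the GC covariate, limma-voom, the replicate block, only the genotypes compared or without homozygous replicates 4 and 5, and 0 to 8 without 1 library. Over all genes tested 2.2% passed there, 4.06% with no filter, 1.7% with upper quartile scaling and 0.0558% to 8.02% without 1 library. Only the genotypes compared gives no midpoint value.

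Of 8 same-numbered pairs 1 correlated above 0.1 (range -0.265 to 0.337), so the numbers were not taken to pair animals; with the replicate block Ncl was 1.18 between homozygous and wild-type, and Nop58, at 0.47, lost its call (adjusted p = 0.208). DESeq2 gave no adjusted p for some low genes. Low counts limit Fbl and Polr1b most.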
